A study of Mus musculus with 4 samples.

Results

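GLUT1-positive macrophages were taken from human CD45+ cells sorted out of MDA-MB-231 tumors, where MDA-MB-231 is a human triple-negative breast carcinoma line, and they numbered 332 of 42702 sequenced barcodes (150 in reaction 1 and 182 in reaction 2). A cell was chosen by its own UMI counts, a UMI being 1 tagged RNA molecule. It needed at least 5 UMIs summed over the macrophage genes CD68, MSR1, CD163, C1QA, C1QB and C1QC, at least 1 UMI of SLC2A1 (ENSG00000117394), which encodes the glucose transporter GLUT1, and at least 4 UMIs summed over SLC2A1, HILPDA (ENSG00000135245) and ADM (ENSG00000148926). Cells with more than 2 UMIs of the cycling genes TOP2A and MKI67, more than 1 of CD3D, CD3G and TRAC, or more than 2 of KRT18 and KRT19 were left out. The tumors grew in the mammary fat pad of MISTRG mice, which carry human M-CSF, GM-CSF and IL-3 in place of the mouse genes and received human CD34+ cells, so that their myeloid cells are partly human. Of the 14 mice, 7 were untreated and 7 drank water with the drug maraviroc (300 mg/l). Dosing began on day 21 and lasted 10 days, and every tumor was taken on day 31. Each mouse carried its own hashtag antibody, whose name in the feature lists gives the treatment. The untreated mice were split 4 to reaction 1 and 3 to reaction 2, and the treated mice 3 and 4. The labels name Mus musculus as the organism, while the reads were counted on the human genome GRCh38, and whether mice shared a CD34+ donor is not given in the sources used here. All tumors came from a single cell line, and the oxygen level of the tissue was not measured.

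In low oxygen the HIF transcription factors escape the oxygen-dependent prolyl hydroxylases and switch on genes for glucose uptake, glycolysis, blood vessel growth and lipid storage. GLUT1 brings glucose into the cell, HILPDA blocks the lipase that empties lipid droplets, and ADM encodes the vasodilator peptide adrenomedullin. All 3 are known HIF targets. Tumor macrophages far from vessels are known to run this program, and lipid droplets and heme breakdown are recurrent features of tumor macrophages.

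The kept cells had more than 600 and at most 6000 detected genes, a mitochondrial share under the limit given in the study's methods, and at least 60% of their hashtag UMIs from a single hashtag. These limits left 7361 cells in reaction 1 and 8966 in reaction 2, of which 3112 and 3457 passed the macrophage gate. The hashtag limit removed 73.4% of the remaining barcodes of reaction 1 and 11.8% of those of reaction 2, so the libraries stood apart in hashtag purity before any result. They also differed in depth. In reaction 1 the GLUT1-positive macrophages had a median of 11481.5 UMIs per cell against 6342.5 in the other macrophages, and in reaction 2 they had 12531 against 13443. The 2 reactions listed 136 barcodes in common (1.0% of the barcodes of reaction 2), and no barcode was a GLUT1-positive macrophage in both. A mouse contributed 14 to 35 GLUT1-positive macrophages (median 24), whose summed UMIs ranged from 176037 to 520762. UMIs were summed per mouse, and the mice were the replicates.

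The genes that chose the cells are given as a description, with no test. SLC2A1 was present in every chosen cell with a median of 2 UMIs, ADM was detected in 90.4% and HILPDA in 64.2% of the cells, and 56.6% held all 3 transcripts. In the summed cells SLC2A1 ranged over the 14 mice from 182 to 354 CPM (median 225), HILPDA from 149 to 441 CPM (median 221) and ADM from 234 to 597 CPM (median 396), where CPM, the normalized count, scales each count to the library size of the sum after TMM normalization. Macrophage identity genes were well expressed on the same scale. C1QA, a chain of complement C1q, ranged from 600.3 to 1784 CPM (median 921), and the scavenger receptor CD163 from 225 to 438 CPM (median 309). Compared with the other macrophages of the same mouse, CD163 was lower in 14, C1QA in 13, C1QB in 14 and C1QC in 13 of 14 mice. CD68 (median 484 against 370.0 CPM) was higher in 11 and MSR1 (median 272 against 245 CPM) in 10 of 14 mice.

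NDRG1 (ENSG00000104419), a hypoxia-induced stress gene, and ENO2 (ENSG00000111674), a glycolytic enolase, mark this population in its working name but played no part in the choice of cells. NDRG1 was detected in 95.5% of the 332 cells (95% exact binomial interval 92.7% to 97.4%), in 53.6% of the 6237 other macrophages and in 28.7% of 2154 T cells. ENO2 was detected in 49.4% of them, in 7.70% of the other macrophages and in 6.22% of the T cells. The median UMIs per cell were 12061, 10759 and 6916, and the ENO2 share of the other macrophages lay close to that of the T cells. T cells serve here as a comparison and not as a blank, and RNA from outside the cells was not estimated. The intervals cover counting error only.

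Levels of other genes already differed between cells outside the gate. Just outside it lay 92 macrophages with SLC2A1 and 3 UMIs of the 3 genes, and just inside it 64 with 4 UMIs. PLIN2, the coat protein of lipid droplets, stood at 258 CPM in the 4389 macrophages without any of the 3 transcripts, at 541 and 581 CPM with 1 and 2 UMIs, at 1221 CPM just outside and at 1408 CPM just inside the limit, and reached 2067 CPM at 6 to 9 UMIs and 3018 CPM at 10 or more. NDRG1 passed through 129, 216, 209.9, 442, 489, 676 and 937 CPM over the same steps. HMOX1, the enzyme that splits heme, stood at 509, 575, 667 and 1438 CPM with 0 to 3 UMIs and lay between 1227 (at 5 UMIs) and 2653 CPM (at 10 or more) within it. CXCL10, an interferon-induced chemokine, went the other way, from 516 CPM at 0 UMIs to 214 CPM at 3 and 78.3 CPM at 10 or more, with its lowest level, 31.2 CPM, at 5. With both reactions pooled, the largest proportional step of HMOX1 and NDRG1 between neighbouring bins lay between 2 and 3 UMIs, outside the gate. This did not hold in each reaction. In reaction 1 the largest step of NDRG1 was from 0 to 1 UMI (116 to 239 CPM). In reaction 2 that of HMOX1 was inside the gate, from 5 to 6 to 9 UMIs (940 to 1796 CPM). A further 181 macrophages held at least 4 UMIs of the 3 genes without a SLC2A1 transcript, and PLIN2 was at 1175 CPM in them.

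**Figure D1:**
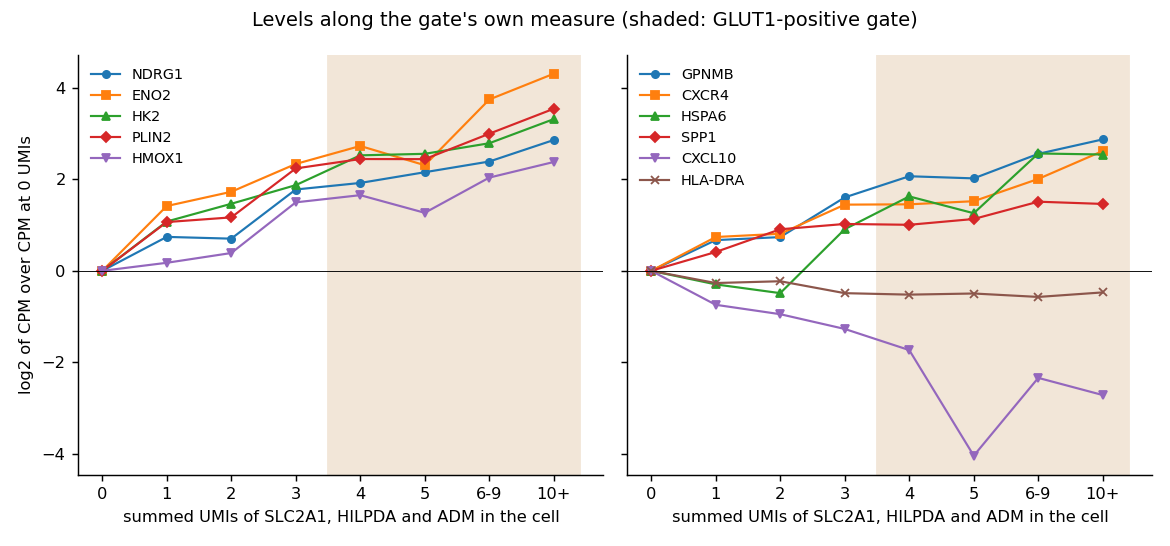
Pooled levels of 11 genes in gated macrophages, as log2 of CPM over the CPM of cells with 0 UMIs, against the summed UMIs of SLC2A1, HILPDA and ADM in the cell. Bins above 0 hold only cells with a SLC2A1 transcript, and the shaded bins are the GLUT1-positive cells. PLIN2 rises from 258 CPM at 0 to 3018 CPM at 10 or more UMIs, with 581, 1221 and 1408 CPM at 2, 3 and 4 UMIs, and CXCL10 goes from 516 to 78.3 CPM with a low of 31.2 CPM at 5 UMIs.

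The first comparison set the GLUT1-positive macrophages of each mouse against the other macrophages of the same mouse, to find what the chosen cells shared beyond the genes that chose them. These other genes were measured in the same cells, so the tests show which transcripts came along with the 3 genes, not that the cells form a type. With the mouse as a block, edgeR's quasi-likelihood test called 492 of 11847 genes higher (4.15% of genes tested) and 228 lower (1.92%), at a Benjamini-Hochberg adjusted p under 0.05 and at least a 2-fold change. At any size, 12.4% were higher and 13.8% lower. The median log2 fold change over all genes tested was -0.07. Fitted separately, the 2 reactions share no mouse, and 222 genes were called higher in both (62.9% of the 353 calls of reaction 1 and 58.1% of the 382 of reaction 2), while 47 were called lower in both (25% of 188 and 27.0% of 174).

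Of 22 genes of glucose handling and glycolysis tested, 9 were called higher and none lower, the list median was 0.92, and 21 were higher at any size. HK2, the inducible hexokinase, ranged from 585 to 1688 CPM (median 842) in GLUT1-positive macrophages and from 111 to 279 CPM (median 177) in the others. The ranges did not meet, and HK2 rose 5.67-fold (log2 fold change 2.50 ± 0.10 (SE), edgeR adjusted p = 1.35e-17). ENO2 ranged from 30.8 to 145 CPM (median 68.4) against 4.83 to 13.5 CPM (median 8.37). It was higher in 14 of 14 mice without overlap, by 8.83-fold (log2 fold change 3.14 ± 0.15 (SE), edgeR adjusted p = 9.13e-16). PDK1, which keeps pyruvate out of the mitochondria, rose by 2.15 ± 0.11 on the log2 scale, and GBE1, the glycogen branching enzyme, by 2.63 ± 0.13. PFKFB4, a regulator of glycolytic flux, rose by 2.09 ± 0.14, and SLC2A3, the second glucose transporter of macrophages, by 1.04 ± 0.06. LDHA at 0.99 ± 0.07 and GAPDH at 0.87 ± 0.06 passed the adjusted p but stayed under 2-fold. Hexokinase 1 did not pass (HK1, -0.10 ± 0.09, adjusted p = 0.469).

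Among HIF pathway members and targets, 17 of 25 genes tested were called higher and none lower, with a median of 1.45. NDRG1 ranged from 442 to 1391 CPM (median 689.6) against 114 to 215 CPM (median 167) in the other macrophages, again without overlap. Its rise was 4.66-fold (log2 fold change 2.22 ± 0.09 (SE), edgeR adjusted p = 1.35e-17). EGLN3 and EGLN1, prolyl hydroxylases that mark HIF for destruction and are themselves induced by it, rose by 2.54 ± 0.18 and 1.18 ± 0.11, while EGLN2 did not pass (-0.26 ± 0.17). BNIP3, a receptor for the removal of mitochondria, rose by 2.23 ± 0.10, P4HA1, a collagen prolyl hydroxylase, by 2.11 ± 0.10, ERO1A, an oxidase of protein folding, by 2.06 ± 0.09, and MXI1, a MYC antagonist, by 2.81 ± 0.10. The transcripts of the HIF subunits were not called. HIF1A stood at 879 to 1729.9 CPM (median 1240.1) in GLUT1-positive and 913 to 1445 CPM (median 1146) in other macrophages, with 0.13 ± 0.08 and adjusted p = 0.222, and EPAS1 at 0.19 ± 0.17 and adjusted p = 0.45. VEGFA, the vessel growth factor, was higher in 13 of 14 mice but by only 1.45-fold (log2 fold change 0.54 ± 0.10 (SE), edgeR adjusted p = 0.000159). CA9 and LOX did not pass the filter on low counts and were at 0 in 14 and 12 of the 14 sums.

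**Figure D2:**
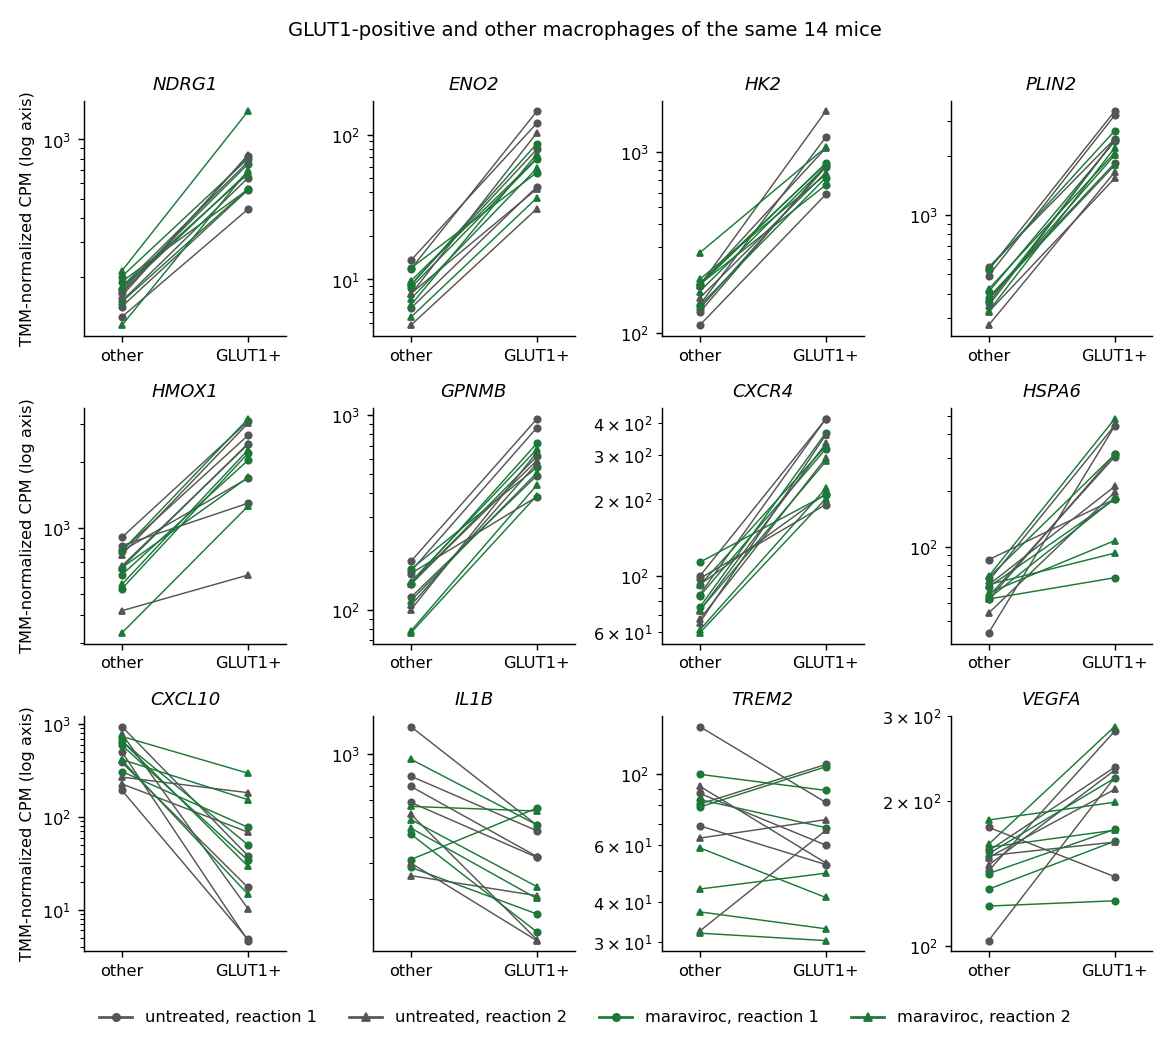
TMM-normalized CPM on log axes of 12 genes in the other macrophages (left) and the GLUT1-positive macrophages (right) of each of 14 mice, each line being a mouse, coloured by treatment and with the marker showing the reaction. NDRG1, ENO2, HK2, PLIN2, GPNMB and CXCR4 do not overlap between the cell groups, CXCL10 is lower in 14 of 14 mice, and TREM2 shows no common direction.

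Of 13 lipid droplet and fatty acid genes tested, 2 were called higher and none lower, beside 4.15% and 1.92% over all genes tested. At any size 4 were higher and 2 lower, beside 12.4% and 13.8% over all genes tested. PLIN2 (ENSG00000147872) ranged from 1532 to 3354 CPM (median 2272) in GLUT1-positive and from 276 to 543 CPM (median 379) in other macrophages. Every mouse showed the rise, and the groups did not overlap (6.02-fold, log2 fold change 2.59 ± 0.07 (SE), edgeR adjusted p = 5.65e-21). ABHD5, a co-activator of the triglyceride lipase, was the other gene of this list to be called (1.07 ± 0.17), and the list median was 0.06. CD36, a fatty acid scavenger receptor, stood at -0.14 ± 0.17 (adjusted p = 0.593) and the lipid chaperone FABP5 at 0.27 ± 0.13 (adjusted p = 0.132), so neither passed the test. Under 2-fold, the lysosomal lipase LIPA (0.53 ± 0.11, adjusted p = 0.000417) and ACSL3 (0.39 ± 0.11, adjusted p = 0.00989) were higher, and ACSL1 (-0.55 ± 0.18, adjusted p = 0.0241) and the droplet coat protein PLIN3 (-0.31 ± 0.11, adjusted p = 0.0317) were lower. The adjusted p of PLIN3 was lost in 13, that of ACSL1 in 4 and that of ACSL3 in 3 of the repeats with another setting or a mouse left out. ACSL1 and ACSL3 activate fatty acids.

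Of 9 genes of lipid-associated macrophages, 4 were called higher, with a list median of 0.99. GPNMB, a lysosomal glycoprotein, ranged from 382 to 959.6 CPM (median 576) against 76.3 to 178 CPM (median 136), and rose 5.06-fold (log2 fold change 2.34 ± 0.09 (SE), edgeR adjusted p = 1.35e-17). SPP1, the secreted protein osteopontin, ranged from 8116 to 37651 CPM (median 19338) against 3702 to 18143 CPM (median 9354). Its ranges overlapped, although it was higher in 14 of 14 mice (log2 fold change 1.22 ± 0.09 (SE), edgeR adjusted p = 3.42e-11). The protease CTSD rose by 1.15 ± 0.07 and the tetraspanin CD9 by 1.15 ± 0.11. TREM2, the lipid receptor after which such cells are often named, did not differ detectably. It ranged from 30.2 to 107 CPM (median 63.4) and from 31.9 to 141 CPM (median 73.9), and was lower in 9 of 14 mice (log2 fold change 0.01 ± 0.13 (SE), edgeR adjusted p = 0.973).

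Of 15 heme, iron and NRF2 genes tested, 3 were called higher and none lower, and at any size 8 were higher and 3 lower, with a list median of 0.61. HMOX1 (ENSG00000100292) ranged from 611 to 3151 CPM (median 2234) against 332 to 908 CPM (median 667) and was higher in 14 of 14 mice (log2 fold change 1.74 ± 0.11 (SE), edgeR adjusted p = 6.82e-13). The lowest mouse, the untreated mouse 1 of reaction 2, lay within the range of the other macrophages. FTH1, the ferritin heavy chain that stores iron, rose by 1.03 ± 0.09, and FTL, its light chain, by 0.81 ± 0.07, under 2-fold. The cystine carrier SLC7A11 rose by 1.14 ± 0.27 in the fit, although it was higher in only 9 of 14 mice and at 0 in 1. Its call was lost in 2 of the repeats with another setting or a mouse left out. SLC40A1, the iron exporter ferroportin, was lower in 13 of 14 mice at -1.0 ± 0.20, which did not reach the 2-fold limit. Also under 2-fold, the transferrin receptor TFRC (0.50 ± 0.11), the glutathione synthesis subunit GCLM (0.85 ± 0.17), the thioredoxin reductase TXNRD1 (0.63 ± 0.13) and the quinone reductase NQO1 (0.90 ± 0.32) were higher, and biliverdin reductase A (-0.36 ± 0.10) and the antioxidant regulator NFE2L2 (-0.21 ± 0.08) were lower. The adjusted p of NQO1 and NFE2L2 was lost in 17 and 15 of the repeats with another setting or a mouse left out. KEAP1 did not pass (0.17 ± 0.20).

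Of 15 heat shock and chaperone genes tested, 10 were called higher and none lower, with a median of 1.45. HSPA6, a stress-only HSP70, ranged from 68.4 to 483 CPM (median 203) against 34.7 to 85.3 CPM (median 58.8), and was higher in 14 of 14 mice with overlap (log2 fold change 2.05 ± 0.19 (SE), edgeR adjusted p = 1.56e-09). It was detected in 49.1% of GLUT1-positive macrophages, 26.0% of other macrophages and 5.48% of T cells. DNAJB1, an HSP40 co-chaperone, rose by 1.95 ± 0.13, the collagen chaperone SERPINH1 by 2.26 ± 0.19 and HSPH1 by 1.62 ± 0.11. HSPA1A rose by 1.38 ± 0.09 and its near copy HSPA1B by 1.49 ± 0.11, between which short reads can be misassigned. The constitutive HSPA8 did not pass (0.03 ± 0.11), nor did the regulator HSF1 (-0.21 ± 0.15). Within the chosen cells the summed chaperone list was uneven, with quartiles of 2269 and 14931 CPM per cell around a median of 5439.7, against 1952 and 5398 around 3146 CPM in the other macrophages. The cells from each tumor were dissociated and sorted before capture, and the part of that handling in the chaperone levels was not tested.

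Of 13 genes of the unfolded protein and integrated stress responses tested, 1 was called higher, beside 4.15% of all genes tested. This was DDIT3, a stress transcription factor, which rose by 2.09 ± 0.19. At any size 6 were higher and 2 lower, beside 12.4% higher and 13.8% lower over all genes tested. Under 2-fold, CEBPB (0.91 ± 0.08), ATF3 (0.79 ± 0.08), PPP1R15A (0.79 ± 0.12), DNAJB9 (0.53 ± 0.16) and ATF4 (0.38 ± 0.10) were higher. CEBPB and ATF3 were higher in 14 of 14 mice without overlap. HSPA5, the main chaperone of the endoplasmic reticulum, stood at -0.07 ± 0.11. SDF2L1, a gene of the unfolded protein response, was lower in 13 of 14 mice (-0.75 ± 0.14), and XBP1 stood at -0.35 ± 0.11. The adjusted p was lost in 4 repeats for DNAJB9, 3 each for ATF4 and XBP1, and 1 for SDF2L1.

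Interferon-induced genes were lower. Of 12 tested, 6 were called lower and none higher, the list median was -0.98, and 11 were lower at any size. CXCL10 (ENSG00000169245), a chemokine for CXCR3-bearing T cells, ranged from 4.66 to 297 CPM (median 36.2) against 194 to 942 CPM (median 459), lower in 14 of 14 mice (log2 fold change -2.80 ± 0.31 (SE), edgeR adjusted p = 7.27e-08). Although its groups overlapped, 13 of the 14 GLUT1-positive sums lay below the lowest sum of other macrophages. The related CXCL9 fell by 1.39 ± 0.31 on the log2 scale and CXCL11 by 1.92 ± 0.51, and both were at 0 in some sums of GLUT1-positive cells (4 and 8 mice). The call of CXCL11 was lost in 3 and that of CXCL9 in 1 of the repeats with another setting or a mouse left out. The guanylate-binding protein GBP1 fell by 1.11 and the antiviral genes IFIT1 and IFIT2 by 1.05 and 1.33. The size differed between the reactions. In reactions 1 and 2 CXCL11 stood at -5.95 and -0.89 and CXCL10 at -3.77 and -2.18. IFIT1 stood at -1.46 and -0.74 and GBP1 at -1.40 and -0.91, under 2-fold in reaction 2 like CXCL11. CXCL9 (-1.79 and -1.10) and IFIT2 (-1.44 and -1.27) were beyond 2-fold in both.

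MHC class II genes were lower by small amounts. None of 10 was called at 2-fold, but 9 had an adjusted p under 0.05, with a list median of -0.46. CIITA, the master activator of these genes, stood at -0.86 ± 0.11 and HLA-DRA at -0.38 ± 0.06, while CD74 did not pass (-0.09 ± 0.06, adjusted p = 0.316). HLA-DQA1 and HLA-DQB1 each lost the adjusted p in 4, and HLA-DPA1 in 3, of the repeats with another setting or a mouse left out. Dendritic cells of the cDC2 type are also rich in class II, and their markers moved with this list. At least 5 cDC2 UMIs were held by 1.81% of the GLUT1-positive and 5.53% of the other macrophages, and the cDC2 markers CD1C (-1.85 ± 0.29) and CLEC10A (-1.40 ± 0.23) were called lower. Their part in the class II levels was not tested. Against a second class, macrophages with at least 3 UMIs of MT1G, 3 of 10 class II genes were lower at any size, where 11.9% of all genes tested were, with a median of -0.23.

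Of 10 receptors of resident macrophages, 2 were called lower and 9 were lower at any size, with a median of -0.51. Against the MT1G macrophages none of the 10 was called, 2 were lower and 1 was higher at any size, beside 11.9% lower and 16.1% higher over all genes tested, and LYVE1 did not pass (-0.32 ± 0.76, edgeR adjusted p = 0.79). MERTK, which takes up dying cells, ranged from 55.1 to 253 CPM (median 81.1) against 124 to 316 CPM (median 229), lower in 14 of 14 mice (log2 fold change -1.06 ± 0.15 (SE), edgeR adjusted p = 2.89e-06), and LYVE1 was called as well (-1.15 ± 0.37), a call lost in 5 of the repeats with another setting or a mouse left out. In reactions 1 and 2 MERTK stood at -0.67 and -1.45, and LYVE1 at -1.41 and -0.94, so each was under 2-fold in 1 reaction. FOLR2 and STAB1 were lower in every mouse at -0.61 ± 0.10 and -0.94 ± 0.11. Of the other receptors lower at any size, SELENOP lost the adjusted p in 9, VSIG4 in 5, CD14 in 4 and CSF1R in 2 of the repeats. Nuclear genes of mitochondrial respiration had no call among 14, with 6 lower at any size and a median of -0.23. Of these 6, COX4I1 lost the adjusted p in 10, COX5B in 9 and COX5A in 2 of the repeats. NDUFA4 and ATP5F1B lost it in 1 each, and ATP5F1A kept it.

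Inflammatory mediators were mixed. The neutrophil chemokine CXCL8 ranged from 1986 to 5887 CPM (median 4220.2) against 930.5 to 1813 CPM (median 1178) without overlap (log2 fold change 1.66 ± 0.11 (SE), edgeR adjusted p = 1.16e-12), and the related CXCL5 rose by 1.85 ± 0.22. The cytokine IL1B ranged from 127 to 551 CPM (median 275) against 261 to 1359 CPM (median 500.1), and was lower in 13 of 14 mice by under 2-fold (-0.77 ± 0.14). IL6 stood at -0.73 ± 0.22. These 2 chemokines were the only calls among 14 genes, beside 4.15% called higher and 1.92% lower over all genes tested. Of matrix and vessel genes, 3 of 11 were called higher, among them the elastase MMP12 (1.41 ± 0.13) and fibronectin FN1 (1.06 ± 0.32, higher in 9 of 14 mice), while the adhesion protein THBS1 stood at -1.0 ± 0.19. The call of FN1 was lost in 4 of the repeats with another setting or a mouse left out.

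Among 9 genes for chemokine receptors and ligands, 1 was called higher and 1 lower, beside 4.15% higher and 1.92% lower over all genes tested. The gene called higher was CXCR4, itself a HIF target. It ranged from 191 to 415 CPM (median 303) against 59.7 to 113 CPM (median 79.3), without overlap (log2 fold change 1.97 ± 0.11 (SE), edgeR adjusted p = 1.28e-13). The fractalkine receptor CX3CR1 fell by 1.5 ± 0.26, and was at 0 in 2 of the 14 sums. CCR2 and its ligand CCL2 stood at -0.69 ± 0.24 and -0.80 ± 0.19. The adjusted p of CCR2 was lost in 10 of the repeats with another setting or a mouse left out.

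Among all genes, the 10 largest rises that every mouse shared were led by ATP6V0D2, a subunit of the proton pump that acidifies lysosomes. It ranged from 12.4 to 279.7 CPM (median 43.6) against 0.609 to 6.75 CPM (median 3.17) and rose 16.8-fold (log2 fold change 4.07 ± 0.37 (SE), edgeR adjusted p = 1.56e-09). TM4SF19, a membrane protein of multinucleated macrophages, rose by 4.01 ± 0.20 and the surface receptor SLAMF9 by 3.25 ± 0.25. The others were the kinase TESK2 (3.21), ENO2, the DNA-binding protein ZNF395 (3.02), the scaffold MPP6 (2.92), the lipase inhibitor ANGPTL4 (2.84), the adenylyl cyclase ADCY3 (2.81) and MXI1. Among falls shared by all 14 mice, for genes with a mean of at least 20 CPM in the higher group as for the rises, CXCL10 was followed by CD1C, a lipid antigen-presenting molecule of type 2 dendritic cells (-1.85), FCGBP (-1.63), GIMAP7 (-1.56), the RNA sensor TLR7 (-1.53), HOMER1 (-1.52), CX3CR1, GIMAP8 (-1.46), the purine receptor P2RY13 (-1.46) and GIMAP6 (-1.44). The 3 GIMAP genes are small GTPases of lymphocytes and other leukocytes. GIMAP7 ranged from 5.89 to 38.4 CPM (median 21.3) against 38.8 to 100.8 CPM (median 71.9), without overlap.

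**Figure D3:**
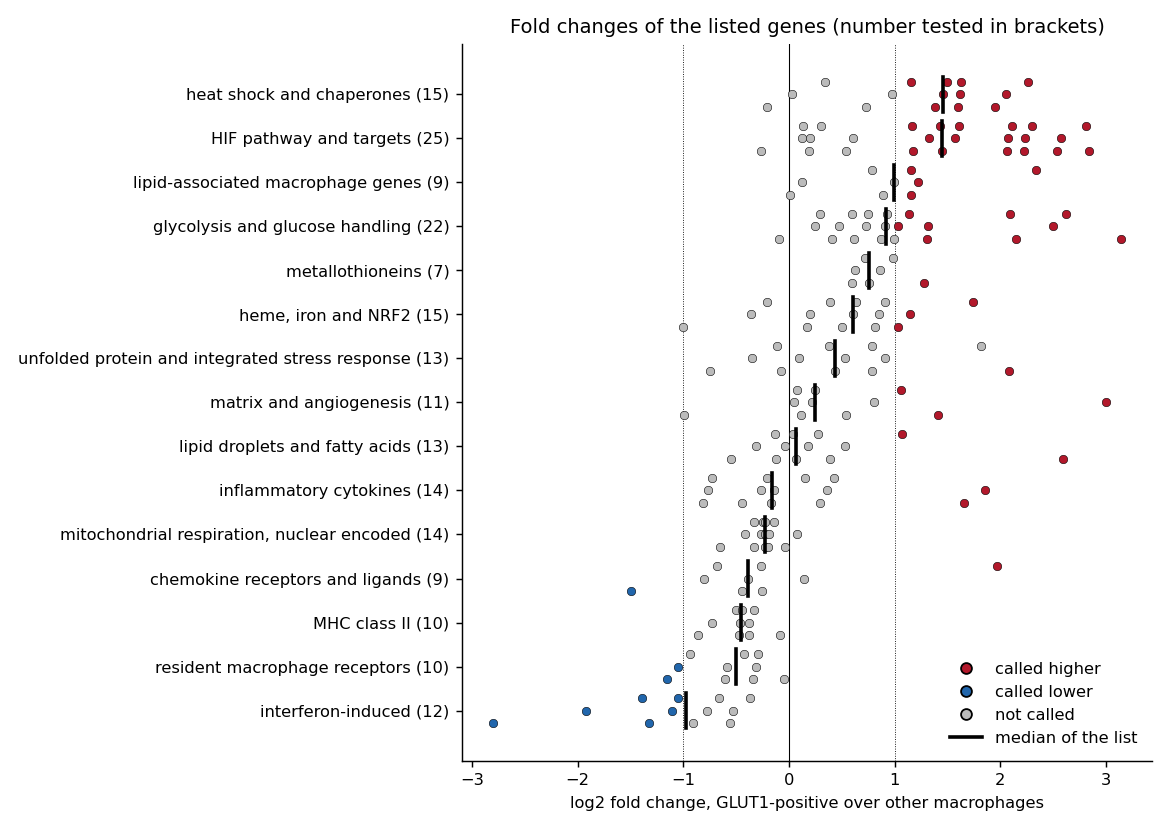
Log2 fold changes of each tested gene (points, in 3 staggered rows) of 15 lists, GLUT1-positive over other macrophages, with the list medians as bars and dotted lines at a 2-fold change. Heat shock (10 of 15) and HIF (17 of 25) genes hold most of the calls to the right and interferon-induced genes (6 of 12) most of those to the left; grey points include genes with an adjusted p under 0.05 but less than a 2-fold change.

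The second comparison asked how the GLUT1-positive cells differ from another macrophage class, 632 gated macrophages that were not chosen and held at least 3 UMIs of the metallothionein MT1G. The classes touched, since 13.6% of the GLUT1-positive cells also reached 3 UMIs of MT1G, against 10.1% of the other macrophages. Of 7400 genes tested, 354 were called higher in the GLUT1-positive cells (4.78% of genes tested) and 72 lower (0.973%). HIF targets (15 of 23), chaperones (10 of 15) and glucose genes (8 of 22) were called higher, with medians of 1.51, 1.52 and 0.74 against -0.01 over all genes tested. By the rule used for the named genes, the largest rises were in ATP6V0D2 (5.04 ± 0.39 on the log2 scale), TESK2 (3.42 ± 0.22), TM4SF19 (3.11 ± 0.26), ALPK3 (2.96 ± 0.35) and CSF1 (2.96 ± 0.29), the growth factor of macrophages themselves. In the MT1G sums each of these 5 genes ranged down to 0 CPM, with medians from 0.961 (ATP6V0D2) to 25.2 CPM (TESK2). The fold of ATP6V0D2 thus stands over a group near 0 counts, and neither its size nor its rank is exact. CXCL10 showed the largest fall (-2.99 ± 0.34), followed by MT1H (-2.43 ± 0.33), MT1M (-2.11 ± 0.27), CRIP1 (-1.53 ± 0.15) and the death ligand TNFSF10 (-1.5 ± 0.18).

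Metal-binding metallothioneins were lower than in the MT1G macrophages, which MT1G itself defined. Of the 6 others tested, 5 were called lower in the GLUT1-positive cells, and near-identical copies of this family can share reads. Against all other macrophages MT1X was the only one of 7 called (1.28 ± 0.18), where 4.15% of all genes tested were called higher. MT1G, which was not used in that comparison, did not pass (log2 fold change 0.72 ± 0.29 (SE), edgeR adjusted p = 0.0662). HMOX1 rose against the MT1G macrophages too (1.06 ± 0.17, edgeR adjusted p = 7.09e-05), whereas SLC40A1 stood at -0.08 ± 0.27 and SLC7A11 at 0.16 ± 0.27, neither passing.

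Markers of other cells were checked on the whole lists. The 5 monocyte markers summed to 5607 CPM in GLUT1-positive and 6283 CPM in other macrophages, with S100A9 the most abundant. Under 2-fold, VCAN was higher (0.64 ± 0.11), and FCN1 (-0.81 ± 0.16), S100A8 (-0.74 ± 0.16) and S100A9 (-0.35 ± 0.11) were lower. S100A12 did not pass (-0.39 ± 0.27). T cell markers summed to 17.2 CPM (CD2 highest), B cell markers to 14.9 (MS4A1 highest) and carcinoma markers to 30.1 (KRT7 highest), against 20.4, 13.3 and 24.7 CPM in the other macrophages. The gate itself limited T cell and keratin transcripts. Mast cell markers summed to 111 CPM against 9.13, with CPA3 highest at 49.3, while 97.9% of the GLUT1-positive cells held none and 2 cells held at least 5 such UMIs, up to 252 in a single cell. None of the 5 mast cell genes was called against the other macrophages, and 1 of 3 tested was called higher against the MT1G macrophages. Their part in the results was not tested. The cDC1, cDC2, mature dendritic and NK lists summed to 33.5, 25.1, 89.8 and 140.2 CPM against 28.3, 80.6, 78.4 and 191, led by CADM1, CLEC10A, FSCN1 and GNLY in the GLUT1-positive cells. Both cDC2 genes tested and 1 of 4 NK genes were called lower. Neutrophil markers summed to 60.6 against 73.9 CPM (CSF3R highest), cycling genes to 25.1 against 38.5 (TOP2A highest), and plasmacytoid dendritic cell markers to 388 against 495, of which IL3RA and TCF4 are also macrophage transcripts while LILRA4 and CLEC4C were at 0 in 10 and 13 of 14 GLUT1-positive sums. Median levels per cell were 0 in all these lists other than the monocyte and plasmacytoid ones. Doublets were limited by the hashtag, T cell, keratin and cycling limits alone, without a doublet caller.

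Over both reactions, GLUT1-positive macrophages made up 5.05% of 6569 gated macrophages (95% exact binomial interval 4.54% to 5.61%, for counting error only). In reaction 1 they were 4.53%, 4.0%, 4.07% and 7.03% of the macrophages of the 4 untreated mice and 3.6%, 4.76% and 6.31% of those of the 3 maraviroc-treated mice, so the groups overlapped. In reaction 2 they were 3.43%, 4.77% and 3.20% in the 3 untreated and 6.44%, 6.61%, 5.51% and 6.91% in the 4 treated mice, which did not overlap. The means over all mice were 4.43% ± 1.27 (SD, n = 7) untreated and 5.73% ± 1.19 (SD, n = 7) with maraviroc. The difference of 1.3 percentage points did not pass a two-sided exact permutation test within reactions (p = 0.0849 over 1225 regroupings, adjusted 0.114 over 4 share tests). With the stricter limit of at least 6 UMIs of the 3 genes the difference was 0.573 points (exact permutation p = 0.353). Within reaction 1 the difference was -0.02 points (exact p = 0.971), and within reaction 2 it was 2.57 points (exact p = 0.0286, which is the smallest that 35 regroupings allow, adjusted 0.114). The test of the difference between the reactions gave 2.59 points (exact permutation p = 0.0857).

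The gate counts UMIs, so depth bears on the share. With each cell thinned to 4000 UMIs and shallower cells left out, the share was 1.88% ± 0.64 (SD, n = 7) untreated and 2.19% ± 0.25 (SD, n = 7) treated (exact permutation p = 0.214). It then rested on 4 to 11 GLUT1-positive cells per mouse. In reaction 1 it was 1.89% to 3.11% untreated against 2.29% to 2.40% treated, with overlap. In reaction 2 it was 1.2% to 1.47% against 1.65% to 2.30%. Thinning left out 222 to 538 kept cells per mouse in reaction 1 and 47 to 122 in reaction 2. Without the untreated mouse 4 of reaction 1, which had the highest share of all, the difference was 1.74 points (exact permutation p = 0.0114). Without the maraviroc mouse 1 of reaction 1, which had the lowest treated share, it was 1.66 points (exact permutation p = 0.0286). Leaving out either of these mice must widen the difference. With any other mouse left out, the exact permutation p lay between 0.0667 and 0.156. None of these p-values was adjusted.

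**Figure D4:**
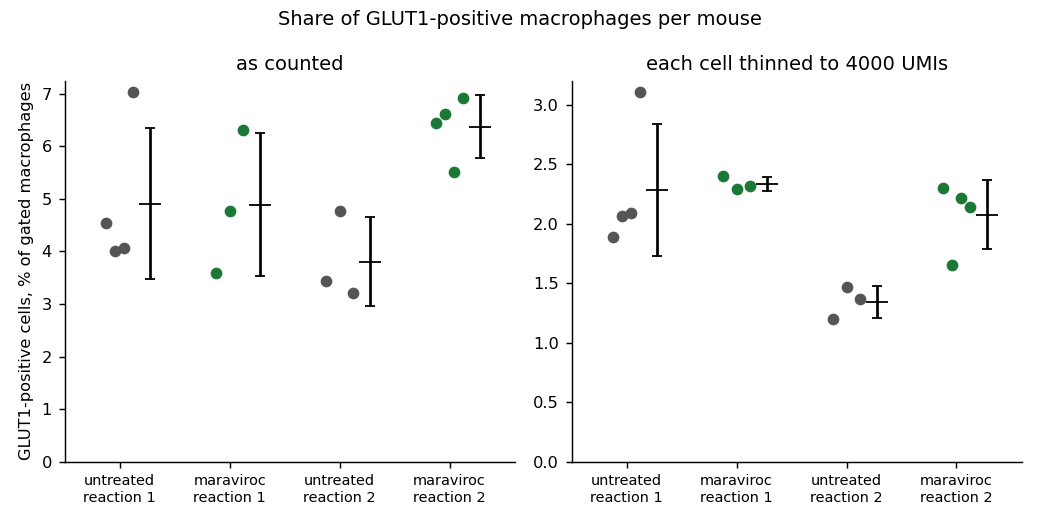
GLUT1-positive cells as a percentage of gated macrophages in each mouse (points) with the mean ± SD beside them, as counted (left) and after thinning each cell to 4000 UMIs (right), by reaction and treatment. The treated mice lie above the untreated ones in reaction 2 alone, at 5.51% to 6.91% against 3.20% to 4.77%.

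The treatment comparison asked whether maraviroc changed transcript levels inside the GLUT1-positive macrophages. With the reaction as a covariate, edgeR's quasi-likelihood test called 0 of 5232 genes (0% of genes tested), and 234 had an unadjusted p under 0.05. DESeq2 also called 0 (3 genes had no adjusted p), with 186 at an unadjusted p under 0.05. The lowest adjusted p of edgeR was 0.616. Sums were normalized separately for this comparison, so the CPM of a mouse differ slightly from those given against the other macrophages.

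PLIN2 ranged from 1499 to 3373 CPM (median 2439) in untreated and from 1880.1 to 2662 CPM (median 2278) in maraviroc-treated mice, the treated range lying inside the untreated one (log2 fold change -0.04 ± 0.14, edgeR adjusted p = 0.9999). HMOX1 ranged from 588 to 3117 CPM (median 2357) in untreated and from 1313 to 3144 CPM (median 2245) in maraviroc-treated mice and did not pass either (log2 fold change -0.00 ± 0.27, edgeR adjusted p = 0.9999). The 3 genes of the gate are described with no test, because each cell was selected on them. SLC2A1 ranged from 185 to 356 CPM (median 279) in untreated and from 192 to 254 CPM (median 213) in maraviroc-treated mice. HILPDA ranged from 149.5 to 425 CPM (median 306) in untreated and from 156 to 273 CPM (median 209) in maraviroc-treated mice. ADM ranged from 308 to 609 CPM (median 449.9) in untreated and from 246 to 552 CPM (median 333) in maraviroc-treated mice, and the groups overlapped in all 3 genes. GPNMB (-0.22 ± 0.19), SPP1 (-0.10 ± 0.19), TREM2 (-0.26 ± 0.24), VEGFA (-0.23 ± 0.18), NDRG1 (0.12 ± 0.19) and ENO2 (-0.35 ± 0.28) did not pass, nor did the transferrin receptor TFRC (-0.17 ± 0.25) or FABP5 (0.14 ± 0.27). The estimate was 0.36 in reaction 1 and -0.54 in reaction 2 for SPP1, and 0.23 and -0.82 for TREM2. IL1B stood at 0.31 ± 0.35, with -0.43 in reaction 1 and 1.11 in reaction 2. Of these 3 differences between the reactions none passed the adjusted p of the test across all genes. CXCL10 stood at 0.81 ± 0.60, and 6 of 7 treated mice lay above the untreated median.

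By list, the median log2 fold changes with treatment were compared with -0.00 over all genes tested. They were negative for chaperones (-0.34, lower in 14 of 14 tested genes), the unfolded protein response (-0.25, 9 of 11), lipid-associated macrophage genes (-0.22, 7 of 9), HIF genes (-0.17, 16 of 22), metallothioneins (-0.15, 4 of 7), glucose genes (-0.12, 17 of 21), MHC class II (-0.06, 6 of 10) and matrix genes (-0.05, 7 of 11). They were positive for chemokine receptors and ligands (0.62, higher in 4 of 6), interferon-induced genes (0.25, 8 of 10), resident macrophage receptors (0.15, 7 of 9), mitochondrial respiration (0.14, 12 of 14), inflammatory cytokines (0.12, 6 of 10) and lipid droplet genes (0.05, 6 of 9), and 0.00 for heme and iron genes (6 of 12). Among interferon-induced genes, the sign turned between the reactions for ISG15, IFIT3 and MX1, as for IFIT1, with 1.12 and -0.49 for ISG15, 1.16 and -0.79 for IFIT3, and 0.57 and -0.13 for MX1 in reactions 1 and 2. They were chosen after their values were seen, and their differences between the reactions did not pass the adjusted p. No gene of these lists passed, genes of a list vary together, and these counts are descriptions of the same 14 mice. HSPA6 ranged from 181 to 454 CPM (median 304) in untreated and from 68.3 to 482 CPM (median 184) in maraviroc-treated mice.

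The effect of treatment was also tested for a difference between the reactions. Of 5880 genes, 1 was called (0.017% of genes tested), and 404 had an unadjusted p under 0.05. This was IFIT1 (ENSG00000185745), an interferon-induced RNA-binding protein, whose effect in reaction 2 minus that in reaction 1 was -4.36 ± 0.53 (edgeR adjusted p = 0.000764). In reaction 1 its level was 0, 9.35, 14.6 and 14.6 CPM in the untreated and 72.9, 95.6 and 109.6 CPM in the treated mice. In reaction 2 it was 73.5, 77.5 and 93.9 CPM in the untreated and 29.4, 29.5, 38.4 and 46.2 CPM in the treated mice. The groups did not overlap in either reaction, with opposite order. Few molecules stood behind these values, namely 0 to 5 UMIs per untreated mouse of reaction 1 and 10 to 31 in the other mice, where a single cell could hold up to 19. In the other macrophages of the same mice IFIT1 ranged from 65.7 to 185 CPM untreated and 139 to 165 CPM treated in reaction 1, and from 64.4 to 109 against 71.8 to 155 CPM in reaction 2, with overlap in both.

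**Figure D5:**
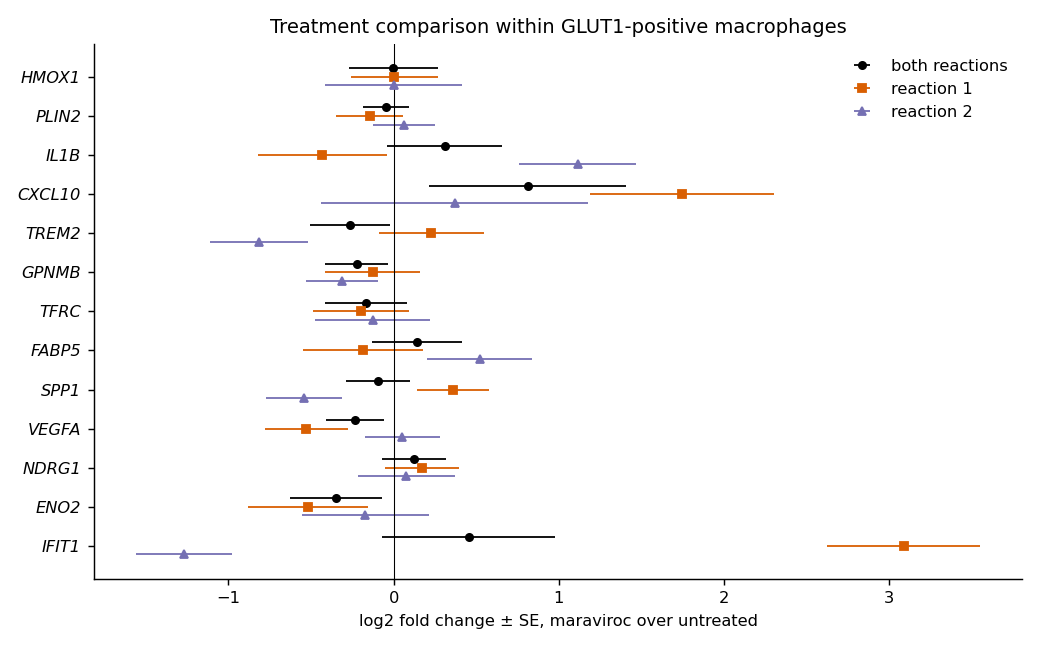
Log2 fold changes ± SE of 13 genes in GLUT1-positive macrophages, maraviroc over untreated, for both reactions together and for each by itself. PLIN2 and HMOX1 lie at 0 within their errors, and IFIT1 lies at 3.09 in reaction 1 and -1.27 in reaction 2.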

How the data were processed

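Human CD45+ cells were captured with Chromium Single Cell 3' v3.1 chemistry. The UMI counts that the authors deposited were made with Cell Ranger 9.0.1 on GRCh38, as the submitters' processing notes name them (with Seurat 5.1.0), and were not normalized. Counts covered genes and 7 hashtags per reaction. Genes whose levels could show a donor's sex were left out of the tables. The members and gene lists were chosen with earlier results of these data known.

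Gated cells were summed per mouse, with at least 10 cells per sum. Genes were tested with edgeR 4.0.16 in R 4.3.3 (TMM, filterByExpr, quasi-likelihood test, Benjamini-Hochberg adjustment over all genes tested), with the mouse as a block between cell groups and the reaction as a covariate between treatments. The standard error was the log2 fold change divided by the root of F. The 16 genes of the gate were left out of calls between cell groups. DESeq2 1.42.0 was an alternative. The fits were tested on simulated data with known changes. Named were the list genes, the 10 largest rises and falls shared by every mouse at a mean of at least 20 CPM, the 5 largest either way against MT1G macrophages by the same rule, and, for treatment, called genes and 16 fixed genes, of which some are not reported here. Whether the mice were independent in CD34+ donor is not given, so p-values measure the spread between mice.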

Additional observations from a re-analysis of the deposited data

Results flagged for a closer look

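Values were searched for a mouse far from the others of its treatment group, over 36 groups of 7 mice, where chance gives about 1 such mouse in 20 groups. Among untreated mice, 7.03% GLUT1-positive cells in the untreated mouse 4 of reaction 1 stood apart from 3.20% to 4.77% in the other 6. CXCL10 was at 186 CPM in GLUT1-positive cells of the untreated mouse 2 of reaction 2, against 4.67 to 67.2 CPM, and FABP5 at 433 CPM in the untreated mouse 2 of reaction 1, against 87.9 to 197 CPM. NDRG1 was at 1451 CPM in the maraviroc mouse 4 of reaction 2, against 556 to 789 CPM in the other treated mice. These CPM are normalized as in the treatment comparison. The same sum of this mouse stood at 1391 CPM for NDRG1 in the comparison with other macrophages. For IFIT1 the treatment effect differed between the reactions by -4.36 on the log2 scale, the only gene of 5880 to pass that test.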

How the results depend on the processing

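Counts of calls against the other macrophages stayed within 1.5 times with each reaction alone, with cells restricted to 8000 to 25000 UMIs, with DESeq2 and with every mouse left out, with these exceptions. Genes called lower were 392 with at least 6 UMIs of the 3 genes, 115 with no mouse block and 428 with no filter on low counts, against 228. Against MT1G macrophages, 231 genes were called higher with no mouse block, against 354, and 125, 44 and 183 lower under the same 3 settings, against 72. In the treatment comparison, 80 genes were called with no filter on low counts, and 1 (BLM, edgeR adjusted p = 0.00511, named after its value was seen) with at least 20 members per mouse, which kept 9 mice. The difference in share was 0.573 points (exact permutation p = 0.353) with at least 6 UMIs of the 3 genes. It was 1.66 points (exact permutation p = 0.0163, not adjusted) with at least 10 macrophage UMIs, -0.0196 points in reaction 1 and 2.57 points in reaction 2. With 1 mouse left out it ranged from 1.10 to 1.74 points (exact permutation p from 0.0114 to 0.156). The cause of these changes was not tested.

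Among 154 named genes compared with other macrophages, no called gene changed sign under the settings run, but 145 repeats with another setting and 53 with a mouse left out lost the adjusted p, most often in NQO1, PLAUR, NFE2L2 and PLIN3. Of genes called at 2-fold, LYVE1 lost it in 5, FN1 in 4, CXCL11 in 3, SLC7A11 in 2 and CXCL9 and ALDOC in 1 repeat each. All 10 leading genes against MT1G macrophages kept direction and adjusted p in 129 repeats with another setting and 140 with a mouse left out. Some treatment estimates changed sign, none with an adjusted p that passed. HILPDA, a gene of the gate whose estimate is given here only as a description, was -0.46 in the fit as reported and 0.11 at a top hashtag of 80%. HMOX1 was 0.0296 with 10 macrophage UMIs, 0.000351 in reaction 2 and 0.00469 in reaction 1, and 0.066 with no filter. PLIN2 was 0.0407 with 10 macrophage UMIs, 0.0614 in reaction 2 and 0.0218 with no filter. In reaction 1 IL1B was -0.43, TREM2 0.23, FABP5 -0.19 and SPP1 0.36, FABP5 was -0.0148 with no reaction term, and VEGFA was 0.0521 in reaction 2. With 1 mouse left out, HMOX1 ranged from -0.19 to 0.16, PLIN2 from -0.108 to 0.0238, TFRC from -0.324 to 0.0256, SPP1 from -0.253 to 0.0222 and NDRG1 from -0.056 to 0.199.

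For the treatment comparison, a mouse gave 14 to 35 cells, and 5232 genes passed the filter on low counts.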
